A study of Mus musculus with 16 samples.

Results

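The comparison is that of sciatic nerves from *Becn1* cKO and control mice at postnatal day 10 (P10), the age at which Schwann cells are wrapping axons and building myelin. It rests on 8 of the 16 arrays of the study, 4 of cKO nerves and 4 of control nerves, which were chosen by genotype and age alone. Another 8 arrays, 4 per genotype at 2 months of age, gave the changes at that age and the test of whether a change differed between the ages. They also entered the choice of values for genes measured more than once and some of the alternative settings. RNA of whole nerve was hybridized to Clariom S arrays with 1 sample per array. The cKO mice carried loxP-flanked (floxed) *Becn1* alleles (*Becn1* fl/fl) and a Cre transgene active in Schwann cells from before birth. The control arrays are labelled *Becn1* wild-type, and by the methods of the study control mice carried floxed *Becn1* (fl/fl or fl/+) without Cre. The labels do not say that the arrays of a group came from separate animals, so p-values measure the spread between these arrays, which may be partly technical. Vessels, connective tissue and immune cells, which the Cre does not target, are part of every sample.

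Beclin 1 is the regulatory subunit that holds the class III PI3-kinase VPS34 in the complexes that start autophagosomes and mature endosomes. Phosphatidylinositol 3-phosphate made by these complexes recruits the machinery that closes the autophagosome and delivers it to the lysosome. When autophagy stalls, its receptor p62 accumulates and can hold KEAP1, which releases the transcription factor NRF2 onto antioxidant genes. Schwann cells use this system to remodel cytoplasm as they myelinate and to clear myelin when they dedifferentiate. A myelinating Schwann cell also makes most of its own cholesterol and galactolipid, so that lipid enzymes are strongly expressed while myelin is built.

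Values are log2 robust multiarray averages (RMA), and a change is the mean of cKO arrays minus the mean of control arrays on that scale. Of 19505 genes tested with limma, 1068 had a higher mean in the cKO arrays (5.48%) and 1451 a lower mean (7.44%) at a Benjamini-Hochberg adjusted p under 0.05, 12.9% in all, and these are the genes called here. The 4 cKO arrays lay wholly above the 4 control arrays for 7.73% of genes and wholly below them for 9.14%. The median change of all genes was 0.002. Correlations between arrays ran from 0.9746 to 0.9893 among control arrays, from 0.9861 to 0.9928 among cKO arrays and from 0.9599 to 0.9765 between them. Control replicate 4 stood apart by skeletal muscle transcripts, with a mean of 10.49 over 28 muscle genes against 6.38 to 8.43 in the other control arrays and 5.86 to 8.30 in cKO arrays. The mean of 3 Y-linked transcripts lay between 8.05 and 8.51 in replicates 1 and 2 of both groups and between 2.98 and 3.53 in replicates 3 and 4, so the groups were balanced in this respect.

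*Becn1* itself stood at 8.62, 8.57, 8.52 and 8.72 in the control arrays and at 8.21, 8.12, 8.30 and 8.39 in the cKO arrays. The groups did not overlap, but the change was small at -0.35 (standard error 0.10, adjusted p = 0.0397 from limma), and its call was lost in 7 of the 8 fits that left out a single array, all but the fit without cKO replicate 4. Where the probes lie relative to the floxed exons is not known here. Markers of myelinating Schwann cells were present on all 8 arrays. Their mean over 8 measured genes was 11.18 to 11.41 in control arrays and 9.88 to 10.07 in cKO arrays. All 8 were called lower, against 7.44% of all genes. In bulk nerve, fewer cells of a type and less RNA per cell cannot be told apart.

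**Figure D1:**
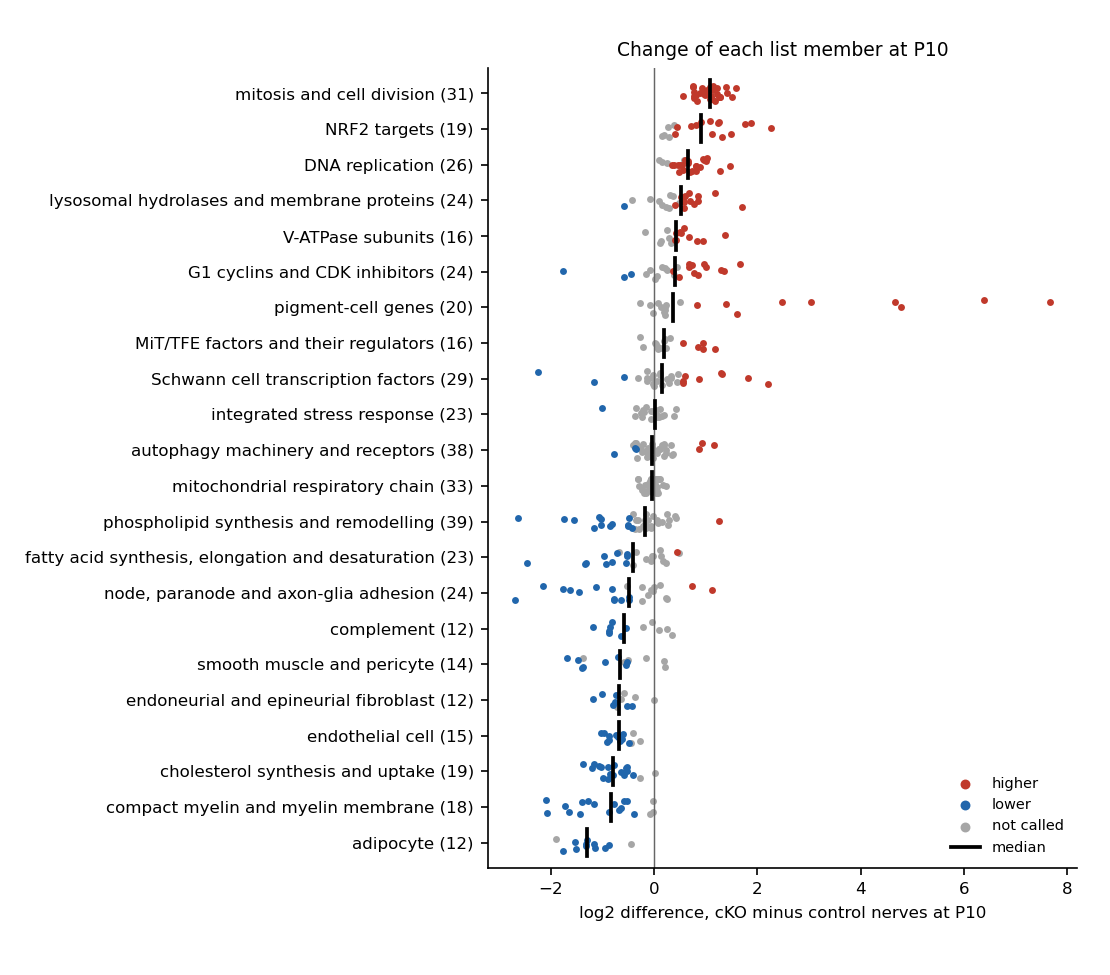
Each point is the log2 difference (cKO minus control nerves at P10, horizontal axis) of 1 gene of the list named on the vertical axis, with the number of measured genes in parentheses, and black bars mark list medians. Red and blue points are genes called higher and lower, grey points were not called, and the medians of the 22 lists drawn run from -1.30 (adipocyte) to 1.08 (mitosis and cell division).

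The pigment-cell genes included *Tyrp1*, the gene with the largest change of all 19505. Of 20 genes on this list 9 were higher and none lower, against 5.48% and 7.44% of all genes. The other 11 were not called, so the median of the list was only 0.37. *Tyrp1*, which encodes a melanosomal oxidase, stood at 4.17, 4.97, 4.77 and 6.16 in control arrays and at 12.66, 12.74, 12.72 and 12.62 in cKO arrays. *Trpm1*, a cation channel first found in melanocytes, rose from 4.85, 4.46, 4.90 and 6.0 to 11.46, 11.56, 11.10 and 11.69. In both genes the cKO arrays were all high and close together and control replicate 4 was the highest of its group. *Dct*, encoding dopachrome tautomerase, rose by 3.04 (standard error 0.18, adjusted p = 7.24e-08 from limma), from 5.10 to 5.96 in control arrays to 8.23 to 8.67 in cKO arrays. *Kit*, the receptor for stem cell factor, rose by 2.47 and *Rab38*, a GTPase of melanosome and lysosome-related organelle transport, by 1.40. Of 6 defining genes of melanocytes 3 were higher, *Tyrp1*, *Dct* and *Pmel* (4.79), and the other 3 did not pass the test. *Tyr*, the enzyme that starts melanin synthesis, read 4.06 to 4.43 in control and 4.06 to 4.57 in cKO arrays, *Mlana* 4.59 to 5.47 and 5.10 to 5.31, and *Mc1r*, the melanocortin receptor, 4.69 to 5.37 and 5.29 to 5.53. None of the 3 was called, and the groups overlapped for each. *Mitf*, the master regulator of the melanocyte, read 7.99 to 8.48 in control and 7.63 to 8.36 in cKO arrays and was not called (change -0.27, adjusted p = 0.349 from limma). The list therefore held very large changes beside genes that were not called. *Kit* also marks mast cells, of whose other 7 genes none was higher.

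**Figure D2:**
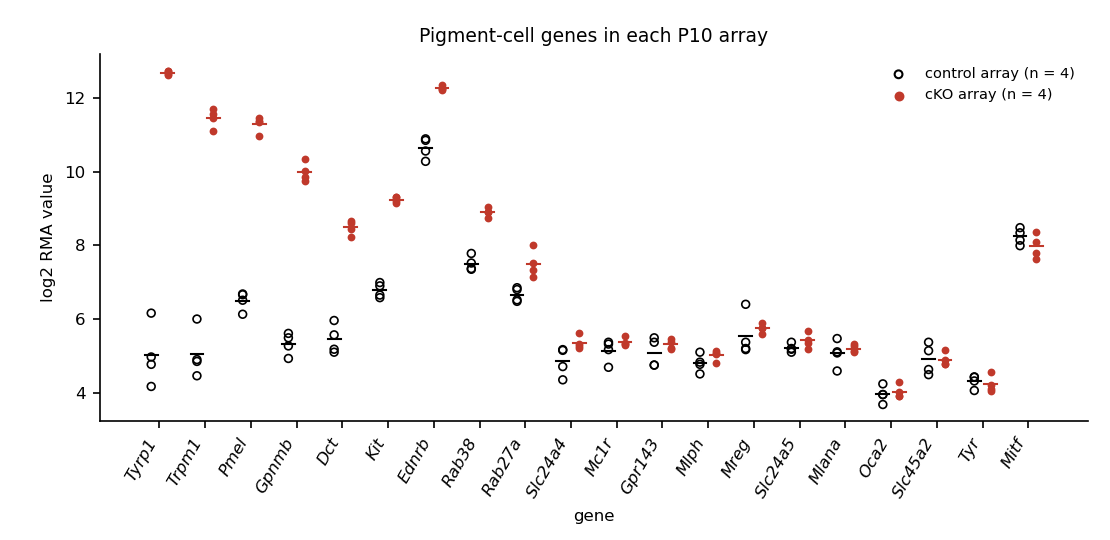
Points are log2 RMA values (vertical axis) of the 20 pigment-cell genes (horizontal axis, in order of change) in each of the 4 control and 4 cKO arrays at P10, and short lines are group means. *Tyrp1* lay at 12.62 to 12.74 in cKO arrays against 4.17 to 6.16 in control arrays, while *Tyr* lay at 4.06 to 4.57 in all 8 arrays.

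The promoters of the 3 most changed pigment genes that hold an M-box are shown because these genes moved together. An M-box is known as a site for MITF and its relatives TFEB and TFE3, and it was searched as TCATGTG on both strands in RefSeq promoter windows of 300 bases, from 250 before to 50 after the annotated start (build GRCm38.p6). Of 15691 measured genes with such a window 3.52% held the letters, against 6 of 15 pigment-cell genes. Besides the 3 shown these were *Tyr*, *Mc1r* and *Slc24a5*, none of which was called. The windows are chr4:80833963-80834262 on the plus strand for *Tyrp1*, chr7:64153585-64153884 on the plus strand for *Trpm1* and chr14:118052197-118052496 on the minus strand for *Dct*, each written 5′ to 3′ with the M-box of either strand in capitals.
Tyrp1: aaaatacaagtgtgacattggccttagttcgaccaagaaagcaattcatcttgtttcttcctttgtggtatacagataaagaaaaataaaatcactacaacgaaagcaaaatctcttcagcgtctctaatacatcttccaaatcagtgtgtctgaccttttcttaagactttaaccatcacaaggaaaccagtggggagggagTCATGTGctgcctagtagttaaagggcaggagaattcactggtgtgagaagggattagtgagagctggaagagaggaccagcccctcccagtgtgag
Trpm1: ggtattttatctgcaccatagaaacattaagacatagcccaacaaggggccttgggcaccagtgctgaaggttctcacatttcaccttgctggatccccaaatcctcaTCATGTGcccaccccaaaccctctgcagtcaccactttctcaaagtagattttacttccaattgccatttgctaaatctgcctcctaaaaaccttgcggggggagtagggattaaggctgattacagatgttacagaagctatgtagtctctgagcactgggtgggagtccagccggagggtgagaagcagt
Dct: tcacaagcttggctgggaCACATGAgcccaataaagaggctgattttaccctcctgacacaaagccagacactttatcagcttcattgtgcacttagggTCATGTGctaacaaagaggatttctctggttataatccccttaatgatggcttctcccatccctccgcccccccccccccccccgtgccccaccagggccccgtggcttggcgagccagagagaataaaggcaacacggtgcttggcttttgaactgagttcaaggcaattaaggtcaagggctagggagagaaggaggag

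Counted from the start, the match lies at -47 in *Tyrp1* and at -142 in *Trpm1*, and *Dct* holds 2 matches. A match is a description of the letters, not of binding. In all, 16 letter strings were searched for the lists of this comparison, chosen with the results known.

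Autophagy genes were called about as often as all genes. Of 38 measured genes of the machinery and its receptors 3 were higher and 3 lower, against 5.48% and 7.44% of all genes, with a median change of -0.03. *Sqstm1*, which encodes p62, read 9.73, 9.96, 9.92 and 9.69 in control arrays and 10.72, 10.88, 11.09 and 11.27 in cKO arrays. *Gabarapl1*, an ATG8-family protein that coats autophagosomes, read 9.04, 8.94, 8.88 and 8.84 against 9.65, 9.80, 10.01 and 9.74. Its rise of 0.87 was larger than that at 2 months (0.19, interaction 0.68, adjusted p = 0.00194 from limma). *Atg4a*, a protease that processes ATG8 proteins, rose by 0.92. *Map1lc3a*, another ATG8 gene, went the other way, from 8.26 to 8.47 in control arrays down to 7.34 to 7.94, a change of -0.78. ATG8 genes therefore moved in both directions. The partners of Beclin 1 in the VPS34 complex, *Pik3c3* (0.24) and *Pik3r4* (0.20), were not called. The count of lower genes fell to 1 without control replicate 2 or without control replicate 3, as the calls of *Ulk2* and *Becn1* were lost. Among 42 phosphoinositide kinases and phosphatases 6 were higher and 3 lower with a median of 0.02. *Pikfyve*, the kinase that acts on the product of VPS34, rose by 0.55 and *Vac14*, its scaffold, by 0.53, while *Pip4k2a* fell by 0.76.

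Most NRF2 targets rose. Of 19 measured genes 14 were higher and none lower, against 5.48% of all genes higher, and the median change was 0.91. *Nqo1*, a quinone reductase, read 5.47, 5.97, 5.94 and 5.38 in control arrays and 7.88, 7.89, 7.66 and 8.40 in cKO arrays, a rise of 2.27 (standard error 0.18, adjusted p = 1.02e-06 from limma). *Txnrd1*, thioredoxin reductase, read 9.03, 9.0, 8.87 and 8.99 against 10.86, 10.86, 10.86 and 10.81. *Srxn1*, sulfiredoxin, read 7.51, 7.45, 7.66 and 7.44 against 9.16, 9.06, 9.36 and 9.58. Every cKO array lay at least a full log2 unit above every control array for these 3 genes. Both subunits of the enzyme that limits glutathione synthesis rose, *Gclc* by 1.31 and *Gclm* by 1.25, as did glutathione reductase *Gsr* by 1.5 and the ferritin light chain *Ftl1* by 1.23. The rises of *Gsr* and *Gclm* were larger than at 2 months, where they were 0.82 and 0.57 (adjusted p of the interaction 0.00753 for *Gsr* and 0.0242 for *Gclm* from limma). The 5 genes not called included *Hmox1*, heme oxygenase, which read 9.05 to 10.26 in control and 9.80 to 10.50 in cKO arrays, and *Slc7a11*, the cystine transporter (0.38 at P10, 1.53 at 2 months, adjusted p of the interaction 0.00117).

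The antioxidant response element, the site of NRF2, was searched as the string TGANTCAGC on both strands. It was present in 4 of 14 NRF2 targets with a promoter window and in 1.34% of all genes with one. Another string for this element, TGACNNNGC, matches TGANTCAGC only where the N of the latter is C. It was present in 6 of 14 and in 15% of all. Windows of *Srxn1* (chr2:152105274-152105573, plus strand) and *Prdx1*, a peroxiredoxin that rose by 0.81 (chr4:116685349-116685648, plus strand), are shown as called genes with the element before the start, with TGANTCAGC in capitals.
Srxn1: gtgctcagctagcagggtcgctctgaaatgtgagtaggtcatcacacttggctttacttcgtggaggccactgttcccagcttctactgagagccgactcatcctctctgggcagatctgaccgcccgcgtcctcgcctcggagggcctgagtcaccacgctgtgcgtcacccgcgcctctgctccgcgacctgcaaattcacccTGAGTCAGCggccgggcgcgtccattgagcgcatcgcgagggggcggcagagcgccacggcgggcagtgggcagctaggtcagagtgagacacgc
Prdx1: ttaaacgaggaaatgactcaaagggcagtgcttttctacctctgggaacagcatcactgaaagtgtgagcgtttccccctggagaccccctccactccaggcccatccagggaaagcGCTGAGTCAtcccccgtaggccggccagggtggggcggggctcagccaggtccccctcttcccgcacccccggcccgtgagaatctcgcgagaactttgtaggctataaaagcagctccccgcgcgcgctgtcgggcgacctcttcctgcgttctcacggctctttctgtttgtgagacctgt

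Lysosomal genes rose by smaller amounts. Against 5.48% of all genes higher and 7.44% lower, of 24 measured hydrolases and membrane proteins 14 were higher and 1 lower, with a median of 0.53, and of 16 V-ATPase subunits, the proton pump of the lysosome, 10 were higher and none lower, with a median of 0.43. *Cd63*, a tetraspanin of late endosomes, read 10.08, 10.16, 10.26 and 9.68 in control arrays and 11.41, 11.84, 11.91 and 11.82 in cKO arrays. *Hexa*, the alpha subunit of beta-hexosaminidase, rose by 1.18, and *Clcn7*, the chloride-proton exchanger of the lysosome, by 0.86. *Atp6v1b2*, the B subunit of the pump, read 8.63, 8.35, 8.40 and 8.12 against 9.60, 9.78, 9.56 and 10.07. The exception was *Lipa*, which encodes lysosomal acid lipase and frees cholesterol from its esters. It fell from 9.41, 9.55, 9.52 and 9.26 to 8.92, 8.80, 8.80 and 8.90, and at 2 months it was higher by 0.50 (interaction -1.08, adjusted p = 1.79e-05 from limma). For 16 of the 24 lysosomal genes the interaction was called with the change at 2 months the more positive, and for none the other way. Over all genes these shares were 7.69% and 4.59%. Macrophages also express lysosomal genes, and the mean of 16 macrophage genes was 7.04 to 7.36 in control and 7.31 to 7.70 in cKO arrays, overlapping, with *Mertk* (1.40), a phagocytic receptor also expressed by other cells, as the only member higher. Leaving out a single array gave 13 to 14 lysosomal genes and 7 to 9 V-ATPase subunits higher.

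Among MiT/TFE factors, which drive lysosomal genes, and their regulators, the higher members were regulators. *Flcn*, encoding folliculin, read 8.46, 8.33, 8.28 and 8.23 in control arrays and 8.94, 9.10, 9.45 and 9.21 in cKO arrays, and its partners *Fnip2* and *Fnip1* each rose by 0.94. *Rragc*, a Rag GTPase that brings mTORC1 and these factors to the lysosome, rose by 0.57. The factors themselves changed by -0.27 (*Mitf*), 0.08 (*Tfeb*) and 0.08 (*Tfe3*), and none was called. On this list 5 of 16 genes were higher and none lower, against 5.48% and 7.44% of all genes. Of 22 AKT and mTOR genes 4 were higher and 3 lower with a median of -0.05. *Sesn3*, a sestrin that restrains mTORC1, rose by 0.95 and *Ddit4*, another inhibitor of mTORC1, by 0.72. The number of lower genes on it was 1 without control replicate 1, cKO replicate 3 or cKO replicate 4.

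**Figure D3:**
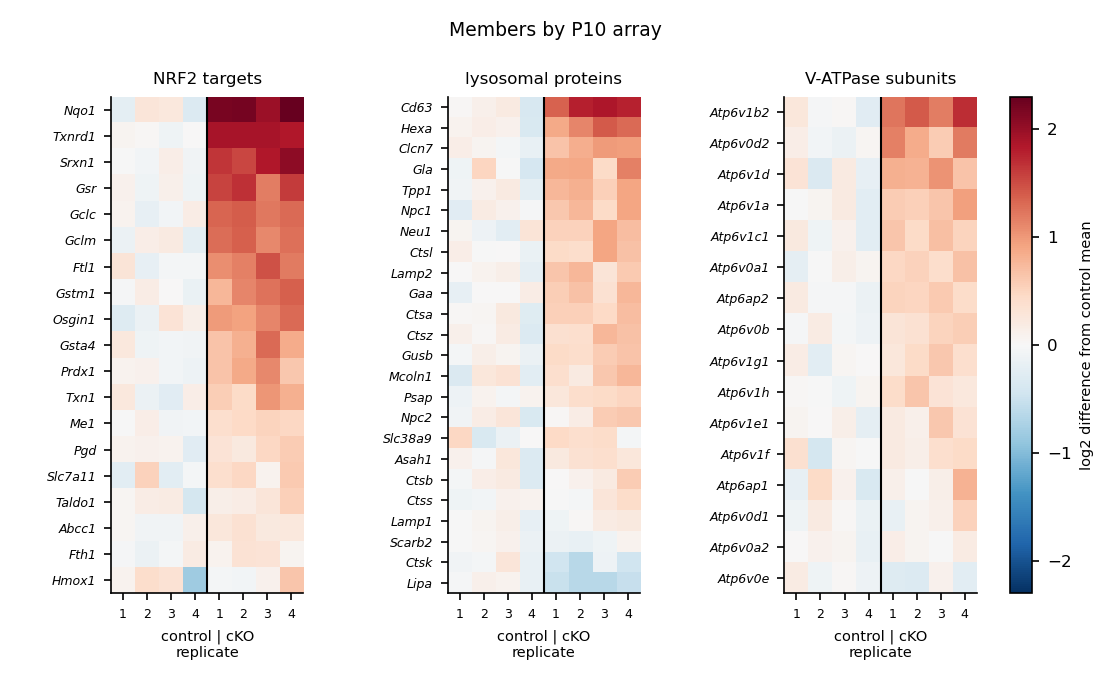
Colour gives the log2 difference of each gene (rows) from the mean of the 4 control arrays in each control and cKO array at P10 (columns). Called NRF2 targets (14), lysosomal genes (14) and V-ATPase subunits (10) are red in the cKO arrays, and *Lipa*, at the foot of its panel, is blue.

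The E-box of the lysosomal gene network, TCACGTGA, reads the same on both strands. It was present in 4 of 21 lysosomal genes and 3 of 10 V-ATPase genes with a promoter window, in none of 15 on the MiT/TFE list and in 1.45% of all. The looser CACGTGA, which overlaps it, was present in 6 of 21, 4 of 10 and 5 of 15 of these lists and in 5.21% of all. Windows of *Clcn7* (chr17:25133141-25133440, plus strand) and *Atp6v1a*, the catalytic A subunit of the pump, which rose by 0.68 (chr16:44139210-44139509, minus strand), show its place in capitals.
Clcn7: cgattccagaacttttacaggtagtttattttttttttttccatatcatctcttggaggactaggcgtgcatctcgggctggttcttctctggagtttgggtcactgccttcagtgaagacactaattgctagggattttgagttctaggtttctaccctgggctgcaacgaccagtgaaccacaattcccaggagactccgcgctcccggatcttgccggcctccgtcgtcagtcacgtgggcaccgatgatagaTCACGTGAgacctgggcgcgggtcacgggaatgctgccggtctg
Atp6v1a: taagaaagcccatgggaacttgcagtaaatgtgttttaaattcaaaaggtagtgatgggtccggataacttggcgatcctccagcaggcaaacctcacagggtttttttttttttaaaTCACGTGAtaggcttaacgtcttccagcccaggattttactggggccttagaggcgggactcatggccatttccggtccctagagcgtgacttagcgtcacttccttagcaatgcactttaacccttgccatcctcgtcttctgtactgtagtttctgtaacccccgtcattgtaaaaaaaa

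Cholesterol synthesis was lower at P10, and most of its genes differed in this from the nerves at 2 months. Of 19 measured genes 17 were lower and none higher at P10, against 7.44% of all genes lower, with a median of -0.79. At 2 months 6 were higher and 5 lower, where 18.5% and 15.5% of all genes were, with a median of 0.19. The interaction was called for 14 of the 19, all more negative at P10, as for 7.69% of all genes. *Lss*, lanosterol synthase, read 11.12, 11.05, 11.31 and 10.98 in control arrays and 9.69, 9.49, 9.84 and 9.93 in cKO arrays, a change of -1.38 against 0.19 at 2 months (interaction -1.57, adjusted p = 2.06e-06 from limma). *Cyp51*, the next enzyme of the chain, fell from 10.44 to 11.08 down to 9.67 to 9.85, a change of -1.02, against -0.07 at 2 months. *Fdps*, which makes farnesyl pyrophosphate, changed by -1.06 at P10 and 0.44 at 2 months. *Insig1*, the sterol sensor partner that restrains SREBP, changed by -0.40 and 0.73. With *Mvd*, *Sqle* and *Ebp*, these last 2 genes were called lower at P10 and higher at 2 months, although the P10 call of *Insig1* was lost without control replicate 3 or cKO replicate 2. *Hmgcs1*, the synthase at the entry of the pathway, read 12.74 to 13.09 in control arrays, fell to 11.74, 11.72, 11.81 and 11.94, and was lower at 2 months too (-1.16 and -0.91, adjusted p of the interaction 0.236). *Dhcr7* (-0.28) and *Srebf2* (0.02), which encodes an SREBP, were not called at P10. Leaving out a single array gave 15 to 17 genes lower.

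The CCAAT box, which NF-Y binds beside SREBP at sterol genes, was searched as CCAAT on both strands and lay in the window of all 15 genes of this list that have one, against 42.2% of all genes. TCACCCCAC, a sterol regulatory element, lay in 1 of 15, *Hmgcs1*, and in 0.631% of all. The windows of *Lss* (chr10:76531355-76531654, plus strand) and *Hmgcs1* (chr13:119690101-119690400, plus strand) are printed for the gene with the largest drop and for the gene that holds both strings, in capitals.
Lss: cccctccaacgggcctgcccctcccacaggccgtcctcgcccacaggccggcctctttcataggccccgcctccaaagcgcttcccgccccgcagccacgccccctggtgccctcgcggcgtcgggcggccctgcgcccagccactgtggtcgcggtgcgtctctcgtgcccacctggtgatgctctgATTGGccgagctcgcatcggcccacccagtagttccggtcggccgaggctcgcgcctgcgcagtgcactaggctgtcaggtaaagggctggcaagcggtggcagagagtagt
Hmgcs1: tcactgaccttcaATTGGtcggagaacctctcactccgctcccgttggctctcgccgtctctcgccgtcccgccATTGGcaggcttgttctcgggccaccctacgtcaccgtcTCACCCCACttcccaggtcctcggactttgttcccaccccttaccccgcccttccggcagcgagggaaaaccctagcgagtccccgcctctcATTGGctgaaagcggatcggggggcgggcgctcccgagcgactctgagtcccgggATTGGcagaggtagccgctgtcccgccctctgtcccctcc

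Other lipid enzymes of the nerve were lower alongside. Adipocyte genes, given further on, were lower too (10 of 12), and their part in these counts was not tested. Of 23 fatty acid synthesis genes 10 were lower and 1 higher, against 7.44% and 5.48% of all genes, with a median of -0.40. *Elovl7*, an elongase, read 9.65, 9.68, 9.80 and 9.45 in control arrays and 7.29, 7.42, 7.31 and 6.72 in cKO arrays. *Elovl1* and *Elovl6*, elongases of saturated chains, fell by 1.32 and 1.33, and *Fasn*, fatty acid synthase, by 0.97. *Acly*, which supplies cytosolic acetyl-CoA, and *Fads2*, a desaturase, were lower at P10 (-0.54 and -0.52) and higher at 2 months (0.93 and 0.69), but the P10 groups overlapped for *Acly* and its call was lost in 5 of the 8 fits that left out an array. The member that rose was *Me1*, malic enzyme, a source of NADPH that is also on the NRF2 list, at 8.38, 8.53, 8.30 and 8.32 in control and 8.76, 8.84, 8.89 and 8.85 in cKO arrays, whereas it fell by 1.07 at 2 months (adjusted p of the interaction 0.000495 from limma). Galactolipid enzymes fell too. *Fa2h*, which hydroxylates the fatty acid of myelin galactolipid, read 11.18, 11.23, 11.03 and 11.11 against 8.98, 8.98, 8.63 and 8.29. *Ugt8a*, which adds the galactose, fell by 2.01, *Cers2*, a ceramide synthase of very long chains, by 1.27, and *Gal3st1*, which makes sulfatide, by 1.16. On the ceramide list 7 of 24 were lower and 1 higher, with a median of -0.12. *Ugt8a* and *Elovl7* changed by -3.67 and -4.17 at 2 months, more than at P10, with the interaction called for both. Over their lists, the interaction was called more negative at P10 for 5 of 24 ceramide and 6 of 23 fatty acid genes. It was called more positive for 1 and 3, against 7.69% of all genes more negative and 4.59% more positive.

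Phospholipid enzymes were lower in 13 of 39 cases and higher in 1, against 7.44% and 5.48% of all genes, with a median of -0.17. *Mboat1*, a lysophospholipid acyltransferase, read 8.97, 9.44, 9.56 and 8.71 in control arrays and 6.68, 6.35, 6.46 and 6.61 in cKO arrays. *Plaat3*, a phospholipase and acyltransferase, fell by 1.74 and *Selenoi*, which makes phosphatidylethanolamine, by 1.17. *Lpin1*, a phosphatidate phosphatase and coactivator, was the exception at 8.67, 8.36, 8.42 and 8.64 against 9.78, 9.77, 9.65 and 9.93, and without control replicate 4 the number of higher genes was 3. Of 17 ganglioside genes 6 were lower and 1 higher. *St8sia5*, a sialyltransferase, fell by 2.90 and *B4galt5*, a lactosylceramide synthase, rose by 1.27. Among 17 lipid-handling genes 8 were lower and 3 higher, with a median of -0.62. The 3 higher genes were *Abca1*, the cholesterol exporter (1.75), *Apoe* (1.02) and *Fabp7*, the fatty acid binding protein of immature glia (2.10). *Fabp4*, *Plin1* and *Plin4* of this list are also on the adipocyte list, of whose 12 genes 10 were lower.

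**Figure D4:**
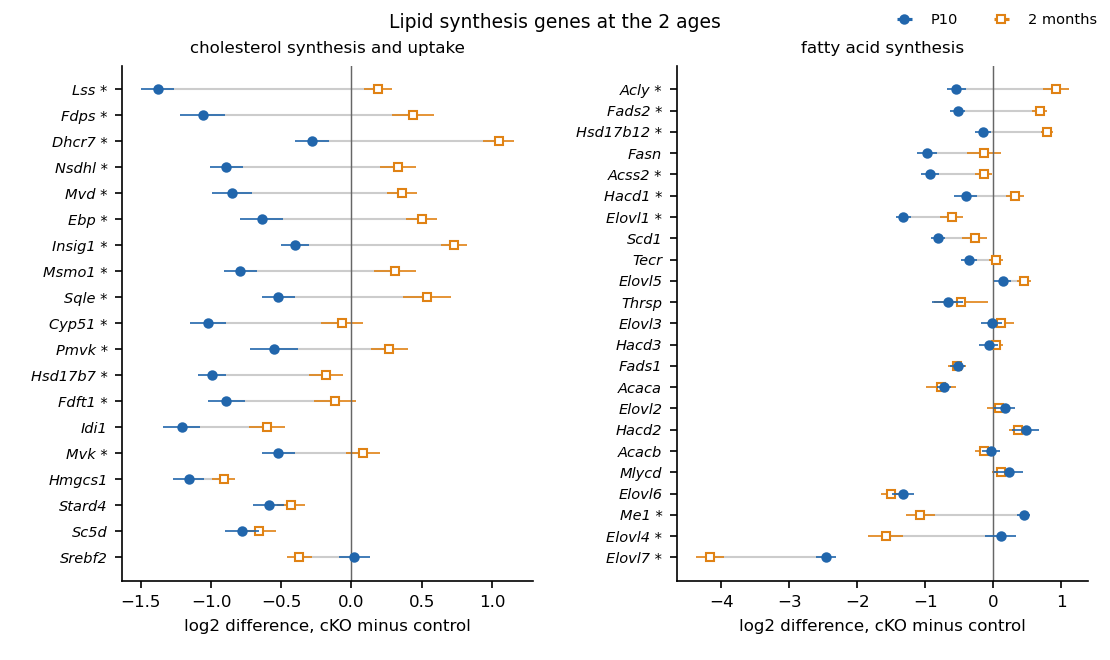
Circles and squares are the log2 differences between cKO and control nerves (horizontal axis) at P10 and at 2 months for each cholesterol and fatty acid synthesis gene (vertical axis), bars are standard errors of limma, and a star marks a called interaction. Cholesterol genes such as *Lss* lay at -1.38 at P10 and 0.19 at 2 months, while *Elovl7* lay at -2.46 and -4.17.

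Structural genes of the sheath and of its contacts with the axon were mostly lower. Of 18 compact myelin and myelin membrane genes 15 were lower and none higher, against 7.44% and 5.48% of all genes, with a median of -0.83. *Mag*, the adhesion molecule of the inner wrap, read 9.31, 9.36, 9.59 and 8.97 in control arrays and 7.18, 7.26, 7.39 and 7.14 in cKO arrays, a larger drop (-2.07) than at 2 months (-1.19, adjusted p of the interaction 0.00809 from limma). *Cd9*, a tetraspanin, also fell more at P10 (-1.43 against -0.36). *Mbp*, by contrast, changed by -1.17 at P10 and -2.33 at 2 months with the interaction called. Of 24 genes of nodes, paranodes and axon-glia adhesion 12 were lower and 2 higher. *Nfasc*, which encodes the glial neurofascin of the paranode, read 9.63, 9.96, 10.10 and 9.87 against 8.12, 8.15, 8.09 and 8.15. *Cntn1*, a contactin, went from 7.74 to 8.24 in control arrays down to 5.30 to 6.16, *Sptb*, a beta spectrin, fell by 2.69 and *Cadm3*, a nectin-like adhesion molecule, by 1.63. *Cdh1*, the E-cadherin of autotypic junctions, rose from 10.86, 11.17, 11.27 and 10.90 to 12.23, 12.21, 12.01 and 12.22, and *Cadm1* rose by 0.73. In the periaxin and dystroglycan complex 6 of 14 were lower and 2 higher. *Drp2*, which links periaxin to dystroglycan, read 10.92, 11.14, 11.11 and 10.88 against 8.64, 8.82, 8.78 and 8.66, and *Sgcd*, a sarcoglycan, fell by 1.60. *Dag1*, dystroglycan itself, changed by 0.06 and was not called, and *Ezr*, the microvillar linker ezrin, rose by 1.27. The call of the other higher member, *Dtna* (0.44), was lost without control replicate 1, 2 or 3 or cKO replicate 2.

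The basal lamina list held the rise of *Lama1*, a laminin chain of embryonic tissue, which read 6.22, 6.06, 6.96 and 6.57 in control arrays and 10.54, 10.40, 10.35 and 10.17 in cKO arrays. Another 6 of its 25 genes were lower, among them *Itga2* (-0.92), *Nid2* (-0.70) and *Itga6* (-0.63), and *Lama2*, the main laminin chain of the Schwann cell, was not called (-0.21). Of 30 collagen chains 9 were lower and 3 higher, with *Col18a1* at 1.16 and *Col15a1* at -0.80. Of 33 matrix proteases and matricellular genes 7 were lower and 3 higher, with *Lox*, a crosslinking oxidase, at -0.83 and *Timp3*, a protease inhibitor, at 0.60. The counts of this paragraph stand against 7.44% of all genes lower and 5.48% higher.

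Cell cycle genes were mostly higher. All 31 measured mitosis genes and 22 of 26 replication genes were higher. Of 24 G1 cyclin and CDK inhibitor genes 12 were higher and 3 lower, against 5.48% and 7.44% of all genes. *Kif23*, a kinesin of cytokinesis, read 7.84, 7.45, 7.79 and 7.44 in control arrays and 9.14, 9.16, 9.03 and 8.85 in cKO arrays. *Cdk2* read 8.70, 8.70, 8.93 and 8.52 against 10.24, 10.21, 10.48 and 10.58, *Ccnd3*, a D-type cyclin, rose by 1.0 and *Myc* by 1.36. *Cdkn1a*, which encodes the CDK inhibitor p21, fell from 11.09, 10.42, 10.30 and 10.63 to 8.86, 8.96, 8.96 and 8.58, and *Ccnd2* was not called (-0.07). Of 18 p53 targets 4 were higher and 4 lower. *Sesn1* (-0.68), *Phlda3* (-0.71, a call lost without cKO replicate 1 or 2) and *Btg2* (-0.75) were lower beside *Cdkn1a*, *Plk2* was higher at 1.31, *Mdm2* was not called (0.04), and the number higher was 2 without control replicate 1, cKO replicate 1 or cKO replicate 4. Vascular and fibroblast genes, given further on, moved the other way in the same arrays, and their part in these shares was not tested.

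The cell cycle homology region, TTTGAA on either strand, is known to hold genes of mitosis silent outside late cycle. It lay in 21 of 26 mitosis genes with a window against 17.8% of all genes. The window of *Cdk1*, the mitotic kinase, which rose by 1.27, is printed as an example (chr10:69352863-69353162, minus strand), with its 2 matches in capitals.
Cdk1: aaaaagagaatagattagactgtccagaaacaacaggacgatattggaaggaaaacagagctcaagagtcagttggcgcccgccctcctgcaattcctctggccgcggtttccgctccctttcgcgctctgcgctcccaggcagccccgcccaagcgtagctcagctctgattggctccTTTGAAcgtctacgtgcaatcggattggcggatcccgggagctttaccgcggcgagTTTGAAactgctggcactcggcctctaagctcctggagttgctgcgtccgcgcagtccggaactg

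Among signalling pathways the direction differed from gene to gene, and their counts stand against 5.48% of all genes higher and 7.44% lower. In the ErbB family, which carries the axonal signal for myelination, *Nrg1* rose from 5.97, 6.49, 6.55 and 6.63 to 7.75, 7.93, 7.32 and 7.37, *Cd44*, a co-receptor, rose by 2.03 and *Erbb4* fell by 1.66. *Erbb2*, the signalling partner, was not called (-0.36), and *Erbb3* (0.47) lost its call without cKO replicate 1 or cKO replicate 4. In all 4 of 18 were higher and 4 lower, and 2 were higher without cKO replicate 1. In the Notch pathway *Hey2*, a repressor induced by Notch, read 6.11, 6.64, 5.56 and 6.32 against 9.41, 9.50, 9.85 and 9.57, while the ligands *Dlk1* and *Dll4* fell by 1.22 and 1.0. There 3 of 20 genes were higher and 5 lower, with 3 lower without control replicate 2 or cKO replicate 2. Of 30 TGF-beta, BMP and Id genes 5 were higher and 7 lower, with changes from -2.02 to 2.21. *Bmp7* read 7.94, 8.49, 8.58 and 8.46 against 6.20, 6.54, 6.19 and 6.47, and *Tgfb2* rose by 1.22. *Id4*, an inhibitor of helix-loop-helix factors, rose by 0.86, and *Id3* fell by 0.74. Secreted Wnt antagonists split, with *Frzb* at -1.95 and *Dkk3* and *Sfrp1* at 1.46 and 0.94. Of 21 Wnt genes 3 were higher and 4 lower. *Sfrp1* was not called at 2 months (-0.03, adjusted p of the interaction 0.0166 from limma).

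Schwann cell transcription factors were higher in 8 of 29 cases and lower in 3, against 5.48% and 7.44% of all genes. Their median change was 0.16 in a range from -2.24 to 2.21, so the members named next are not those with the largest changes. *Egr3*, a zinc-finger relative of *Egr2*, rose by 1.32 and *Foxd3*, a neural crest factor, by 0.87. *Nab1*, a co-repressor that EGR2 needs, fell by 1.16. Neurotrophic factors of the repair cell, *Gdnf* (0.11), *Bdnf* (-0.07) and *Artn* (0.33), were not called. *Gfra3*, the artemin receptor, read 6.6, 7.14, 6.69 and 6.70 in control arrays and 5.21, 4.86, 5.11 and 5.75 in cKO arrays. Of the 15 repair genes 3 were higher and 2 lower. Of 11 genes of non-myelinating and general Schwann cells 3 were higher and 4 lower, with *Ncam1* at 0.90 and *Scn7a* at -1.55, and their mean of 8.84 to 8.99 in cKO arrays overlapped that of control arrays (8.85 to 9.22).

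Potassium channel genes included *Kcnj10*, an inward rectifier of glia, which rose by 1.43, *Kcnip3*, which rose by 1.84, and *Kcnk1*, which fell by 1.96. Of 22 measured, 3 were higher and 6 lower, against 5.48% and 7.44% of all genes. Only 3 were lower without control replicate 3 and 2 without cKO replicate 3. Among 12 septins *Septin3* read 9.42, 10.05, 9.74 and 9.51 against 6.89, 6.97, 6.56 and 6.54, and 3 were lower, or 1 without control replicate 3. Of 19 imprinted and postnatal growth genes 8 were lower and none higher, led by *Dlk1* and *Nnat* at -1.22 each, and 5 were lower without cKO replicate 3. Of 34 semaphorin, ephrin and Slit genes 12 were lower and 3 higher. *Sema5a* fell by 1.43 and *Sema6d* by 1.10, and *Epha5*, its ligand *Efna5* and *Sema3g* rose by 1.21, 1.02 and 1.09. Of 14 axonal transcripts 3 were lower and 1, *Mapt*, encoding tau, was higher, at 7.41, 7.21, 7.11 and 7.56 against 8.73, 8.87, 9.06 and 8.74. The neurofilament genes *Nefl* (-0.11), *Nefm* (-0.24) and *Nefh* (-0.10) were not called.

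Genes of other nerve cells were lower in the same arrays. Of 15 endothelial genes 12 were lower and none higher, against 7.44% and 5.48% of all genes. Their list means were 7.96 to 8.33 in control and 7.29 to 7.50 in cKO arrays. *Pecam1* read 9.38, 9.62, 9.39 and 9.37 against 8.66, 8.49, 8.39 and 8.69, a change of -0.88. At 2 months it changed by -0.19 and was not called (adjusted p of the interaction 0.0315 from limma). It was the only 1 of the 15 endothelial genes with a called interaction. At 2 months 6 of them were lower, where 15.5% of all genes were, with a median of -0.29. Of 14 smooth muscle and pericyte genes 8 were lower, with *Acta2*, smooth muscle actin, at 10.34, 10.88, 9.65 and 10.45 against 8.97, 9.08, 8.61 and 8.78. Of 12 fibroblast genes 7 were lower, with *Cd34* at -0.74 and *Clec3b* at -1.0, and of 12 adipocyte genes 10 were lower with a median of -1.30. *Adipoq*, adiponectin, read 9.51, 9.10, 8.69 and 8.98 against 7.58, 7.31, 7.43 and 6.92. The groups did not overlap in the mean of any of these 4 lists, and none of their genes was higher. Complement genes, which fibroblasts express, were lower in 7 of 12 cases, with *C1ra* at -0.88 and *Cd55*, a complement inhibitor, at -1.18. None of 28 skeletal muscle genes was called, at a median of -0.95, which was -0.18 without control replicate 4, and 4 were lower without control replicate 2. The part of these cell types in the lower counts of other lists was not tested.

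**Figure D5:**
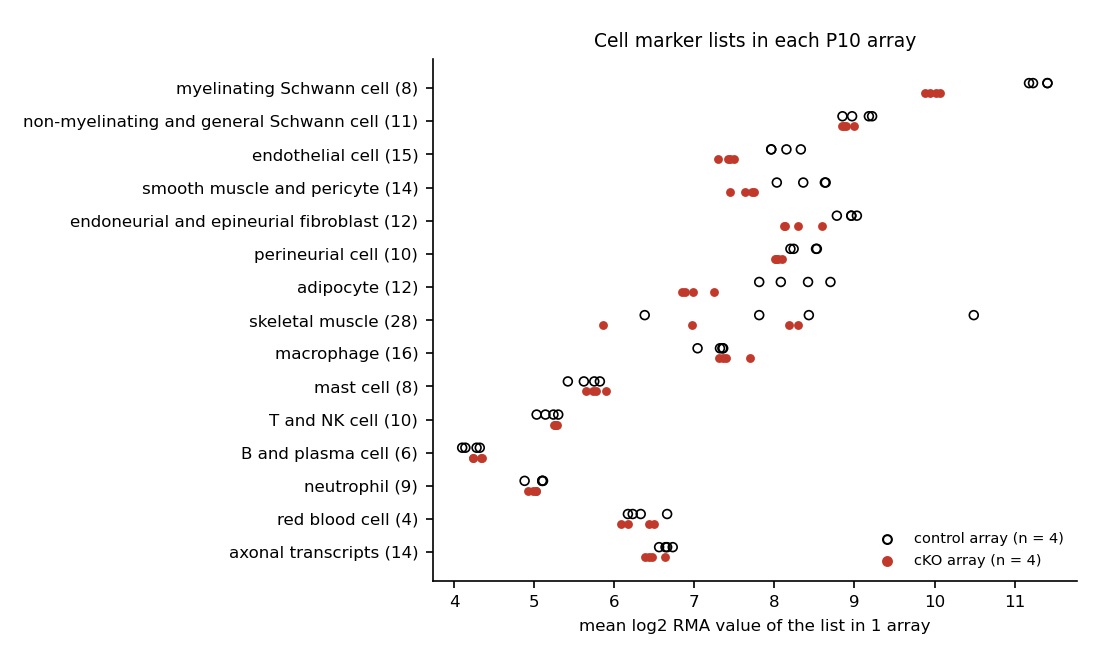
Points are the mean log2 RMA value (horizontal axis) of each cell marker list (vertical axis, number of genes in parentheses) in 1 control or cKO array at P10. Endothelial, smooth muscle, fibroblast and adipocyte means were lower in all 4 cKO arrays, immune means overlapped, and skeletal muscle reached 10.49 in control replicate 4.

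Genes of immune and stress programmes are given beside the shares over all genes, which were 5.48% higher and 7.44% lower at P10, 18.5% higher at 2 months and 7.69% with a more negative interaction at P10. None of 9 neutrophil, 10 T and NK cell and 6 B and plasma cell genes was called, and of 16 macrophage genes *Lyve1* alone was lower (-0.51), a call lost in 7 of the 8 fits that left out an array. At 2 months 13 of the macrophage genes were higher, and the interaction was called more negative at P10 for 12 of them. *Csf1r*, the macrophage growth factor receptor, changed by 0.13 at P10 and 1.41 at 2 months. Of 23 genes of the integrated stress response only *Nupr1*, a stress-inducible chromatin protein, was called, and it was lower, at 8.62, 8.61, 8.80 and 8.48 in control arrays and 7.50, 7.59, 7.72 and 7.69 in cKO arrays. Of 14 chaperone and unfolded protein response genes none was higher and *Xbp1*, a transcription factor of this response, was lower (-0.56), a call lost in 6 of the 8 fits that left out an array, and *Hspa5*, the chaperone BiP, was not called (-0.28). None of 33 respiratory chain genes was called, against 26 higher at 2 months, and the interaction was called for 13. Their mean in the P10 control arrays, 8.73, 8.28, 8.30 and 8.94, was highest in control replicate 4, as was that of muscle. Of 26 cytokine and chemokine genes *Cxcr4*, the receptor of CXCL12, was the only one higher (3 were without control replicate 3), at 6.89, 6.81, 6.62 and 6.72 against 9.41, 9.51, 9.74 and 9.70, and its ligand *Cxcl12* fell by 0.64. Of 14 interferon genes 2 were higher and 1 lower, and of these *Cxcl10* (1.14) was called in all 8 fits that left out an array, with 4 genes higher without control replicate 4 and 1 without control replicate 1 or 3.

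Of 14 antigen presentation genes 1, *B2m* (0.79), was higher and 2 lower, against 5.48% and 7.44% of all genes. Without control replicate 4, 3 were higher. The lower genes were *H2-DMa* and *H2-DMb1*, which encode the chaperone that loads peptides onto MHC class II. *H2-DMa* read 8.32, 8.37, 8.23 and 8.01 in control arrays and 5.99, 5.66, 6.27 and 5.94 in cKO arrays, and *H2-DMb1* 8.98, 9.54, 9.16 and 8.72 against 6.65, 6.34, 6.77 and 7.16. Both changes, -2.27 and -2.37, exceeded those at 2 months, -0.62 and -0.75 (adjusted p of the interaction 6.18e-05 for *H2-DMa* and 0.000161 for *H2-DMb1* from limma). The class II chain *H2-Aa* was not called (0.11), nor was *Ciita*, the class II transactivator (0.35).

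The change differed between the ages for 895 genes more positively (4.59%) and 1499 genes more negatively (7.69%) at P10. Of the 2519 genes called at P10, 351 went further in the same direction at 2 months with a called interaction, 319 were larger at P10 or of opposite sign at 2 months, and 45 were lower at P10 and higher at 2 months while 13 did the reverse. Among genes that rose at P10 with a smaller or opposite change at 2 months, *Gpm6a*, a neuronal membrane glycoprotein, read 7.62, 8.05, 7.96 and 7.81 in control arrays and 8.51, 8.72, 8.32 and 8.47 in cKO arrays, a rise of 0.64 where it fell by 2.51 at 2 months. *Lncpint*, a p53-linked long noncoding RNA, read 8.0, 7.76, 8.11 and 8.45 against 9.69, 9.76, 9.66 and 9.28 and was not called at 2 months (-0.25). *Adgrb3*, an adhesion receptor, changed by 1.01 at P10 and -0.76 at 2 months, and *Alox12*, a lipoxygenase, rose by 2.54 and 1.05. Of those that fell, *Aacs*, which feeds acetoacetate into lipid synthesis, read 9.0, 9.21, 9.23 and 8.48 against 7.13, 7.42, 7.96 and 8.13, a drop of 1.32 where it rose by 0.40 at 2 months. *Gpr37l1*, a glial receptor, changed by -0.73 and 0.92, *Mgp*, matrix Gla protein, by -0.64 and 0.98, and *Trim30a* by -0.72 and 0.89. For each gene named in these sentences the interaction was called.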

How the data were processed

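RNA of sciatic nerves was measured on Clariom S arrays, 4 per group. The authors deposited log2 values after robust multiarray averaging (RMA) over the scans, 22206 transcript clusters per array. Scans were not used here, so background and saturation of a probe are unknown, and precision is limited by there being 4 arrays a group. Groups came from the sample labels. The 19572 clusters with a symbol were reduced to 19505 genes, keeping the cluster with the highest mean over 16 arrays for 55 genes on several. Linear models were fitted with limma 3.58.1 (R 4.3.3; lmFit, eBayes with intensity trend) to the 8 P10 arrays, and to all 16 arrays for the interaction between genotype and age. Tests were two-sided, p-values were Benjamini-Hochberg adjusted over all genes, and genes were called at an adjusted p under 0.05. The fits were tested on simulated data.

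Genes and 58 gene lists were chosen with earlier results of these data known, and list genes without a row are not analysed here. Genes named in the text were drawn mainly from 529 picked by a rule. The rule took *Becn1* and the 15 largest called changes per direction without overlap of the groups. It also took up to 8 members per list by p and its first 3. Last came the 10 largest interactions per direction among genes with a smaller or opposite change at 2 months. The text names only part of these, chosen without a further rule. Other list members named as examples were chosen after their values were seen. RefSeq promoter windows (GRCm38.p6) were searched for 16 letter strings, also chosen after values were seen, using Python 3.11.15. Alternatives were significance analysis of microarrays (SAM), a filter on dim genes, other scalings, no intensity trend, array weights, all 16 arrays, every cluster, a fold threshold, the replicate number as a block and leaving out each array.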

Additional observations from a re-analysis of the deposited data

Results flagged for a closer look

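In 22 of 402 groups of 4 arrays examined, 1 array lay far from the other 3 by Dixon's test, which chance alone gives in about 1 of 20 groups. These were *Acly* in cKO replicate 3 at 9.85 against 9.24 to 9.34, *B4galt5* in cKO replicate 2 at 9.25 against 9.21 to 9.21 and *Cdh1* in cKO replicate 3 at 12.01 against 12.21 to 12.23. Also apart were *Col15a1* in control replicate 1 at 10.01 against 10.15 to 10.16, *Cxcl12* in control replicate 3 at 9.20 against 9.35 to 9.37 and *Egr2* in control replicate 1 at 10.70 against 11.06 to 11.13. Others were *Elovl1* in cKO replicate 3 at 10.40 against 10.12 to 10.17, *Erbb4* in cKO replicate 3 at 4.41 against 5.23 to 5.35 and *Fabp7* in control replicate 4 at 4.85 against 5.94 to 6.13. Also apart were *Gpr37l1* in control replicate 1 at 9.82 against 9.37 to 9.42, *H2-Aa* in control replicate 1 at 6.81 against 7.05 to 7.07 and *Hexa* in control replicate 4 at 8.26 against 8.69 to 8.76. Others were *Lama2* in cKO replicate 3 at 11.21 against 11.42 to 11.45, *Mt1* in cKO replicate 4 at 11.04 against 11.41 to 11.46 and *Nefh* in control replicate 4 at 7.08 against 7.49 to 7.54. Also apart were *Pecam1* in control replicate 2 at 9.62 against 9.37 to 9.39, *Phlda3* in control replicate 4 at 6.65 against 7.28 to 7.33 and *Selenoi* in control replicate 1 at 10.97 against 10.82 to 10.85. Others were *Srebf2* in control replicate 4 at 11.37 against 10.97 to 11.03, *Txnrd1* in cKO replicate 4 at 10.81 against 10.86 to 10.86 and the mean of the macrophage list in control replicate 4 at 7.04 against 7.32 to 7.36. Also apart were the mean of the neutrophil list in control replicate 1 at 4.88 against 5.10 to 5.11.

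The difference between the P10 and the 2-month change was called with limma for 895 genes in the positive and 1499 in the negative direction. Among genes named above that are in the cholesterol list, or that were called at P10 with a smaller or opposite change at 2 months, the P10 change minus the 2-month change was positive for *Adgrb3* (1.77), *Alox12* (1.48), *Dct* (1.66), *Gpm6a* (3.15), *Hey2* (1.74), *Lncpint* (1.76) and *Me1* (1.52). It was negative for *Aacs* (-1.72), *Cyp51* (-0.94), *Dhcr7* (-1.34), *Ebp* (-1.14), *Fdps* (-1.50), *Gfra3* (-1.86), *Gpr37l1* (-1.65), *H2-DMa* (-1.65), *H2-DMb1* (-1.62), *Insig1* (-1.13), *Lss* (-1.57), *Mgp* (-1.62), *Mvd* (-1.21), *Sqle* (-1.06) and *Trim30a* (-1.61). The 2 changes share no array.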

How the results depend on the processing

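The counts at P10 kept their order, with more genes lower than higher, under every alternative run. SAM on the 5000 most variable clusters called 480 clusters higher and 1000 lower, against 1068 and 1451 of 19505 genes in the main fit. A log2 change of at least 1 as a further threshold left 228 higher and 318 lower. Leaving out 1 array gave 841 to 1014 genes higher and 1131 to 1532 lower at P10. Centring each array on its median gave 1161 higher and 1311 lower and quantile normalization 1195 and 1348. Quantile normalization brought the interaction counts closer together, with 1085 genes more positive and 1228 more negative at P10 against 895 and 1499. The labels do not say whether replicate numbers pair the samples. Deviations of same-numbered arrays correlated at 0.19, -0.15, 0.06 and 0.05, which cannot settle it. With the replicate block 920 genes were higher and 1324 lower, and the interaction was called for 773 and 1295 genes. No change of a named gene turned its direction while called. Of 349 genes picked by the rule and called at P10, 299 were called in each of the 8 fits that left out an array. Without scanner values, no limit from background can be given for dim genes.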

Other observations

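Several genes outside the lists were looked at after their values were seen. The detoxifying enzymes *Gsta2*, a glutathione transferase, and *Aldh3a1*, an aldehyde dehydrogenase, changed by 2.28 and 2.68 in cKO nerves at P10, and the metallothioneins *Mt1* and *Mt2*, which bind zinc and copper, by 1.31 and 1.36. *Gstp1* and *Gstp2* changed by 1.8 and 1.68, and as near-identical copies their probes may share signal. *Ptgds*, prostaglandin D synthase, changed by 2.81.

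The remaining chain of the class II chaperone, *H2-DMb2*, read 6.43, 6.58, 6.71 and 6.31 in control arrays and 5.28, 5.11, 4.88 and 5.17 in cKO arrays, a change of -1.40 against -0.12 at 2 months (adjusted p of the interaction 0.00627 from limma).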
